A study of Mus musculus with 5 samples.

Results

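The effect of adding buthionine sulfoximine (BSO) to a thiazolidinedione was compared between troglitazone (TGZ) and rosiglitazone (RGZ) in mouse liver. For each gene the BSO effect with TGZ (BSO+TGZ minus TGZ) and the BSO effect with RGZ (BSO+RGZ minus RGZ) were taken on the log2 scale, and the second was subtracted from the first. A positive difference therefore means that the BSO effect was higher with TGZ than with RGZ. A gene entered when its probe was called well above background by the scanner software on all 4 arrays that carry a thiazolidinedione. Where a gene had several probes, the one with the highest mean over all 5 arrays was used. Of 36870 gene names on the arrays 18666 met this rule, 1063 were well above background on 3 of the 4 arrays, and 14791 on none. No measured change was used to choose them.

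The series holds 5 groups of female BALB/c mice, 6 weeks old, whose livers were taken 6 hr after intraperitoneal dosing. The groups received TGZ at 300 mg/kg with BSO at 700 mg/kg (BSO+TGZ), TGZ at 300 mg/kg alone, RGZ at 300 mg/kg with BSO at 700 mg/kg (BSO+RGZ), RGZ at 300 mg/kg alone, or vehicle. Equal amounts of RNA from 6 animals were pooled per group and each pool was hybridised to 1 array, so no group has a replicate and no group received BSO alone. TGZ is spelled out in the title of the study, and RGZ and BSO are read here as is usual for these compounds. The samples are whole liver, and a signal in whole tissue cannot tell fewer cells of a type from less RNA per cell.

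TGZ and RGZ share the thiazolidinedione ring and activate the nuclear receptor PPAR gamma. They differ in the rest of the molecule: TGZ carries a chromanol group like that of vitamin E, RGZ a pyridine-bearing side chain. TGZ was withdrawn from use because of liver injury. BSO inhibits glutamate-cysteine ligase, the enzyme that commits cysteine to glutathione synthesis, and so lowers the glutathione that liver cells use against electrophiles and peroxides. When electrophiles build up, the transcription factor NRF2 escapes its inhibitor KEAP1 and switches on antioxidant genes. Shortage of amino acids or misfolded protein in the endoplasmic reticulum acts through ATF4, ATF6 and XBP1 on further gene groups.

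The signals were scaled to the 75th percentile of each array, and a scaled log2 signal of 0 is that percentile. This percentile was a processed signal of 170 with BSO+TGZ, 142 with TGZ, 191 with BSO+RGZ, 208 with RGZ and 185 with vehicle. All 18 hepatocyte markers looked for, among them Alb and Hnf4a, were well above background on the 4 arrays. The measurement error of a difference combines the scanner software's error of 4 spots, and its 95% interval was typically 0.57 wide to either side on the log2 scale, a factor of 1.48. Probes printed in 10 spots gave a tighter figure, an SD of 0.09 for the same difference. Neither covers the spread between animals or pools, and since each group is 1 pool, no difference was tested and a gene is counted, or called, by size alone, at 2-fold or more.

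Adding BSO was accompanied by few differences of 2-fold with either compound. With TGZ 204 genes (1.09%) were higher by 2-fold or more when BSO was given, and 40 (0.214%) were lower by as much. With RGZ 57 genes (0.305%) were higher by 2-fold or more and 72 (0.386%) lower. Across the 18666 genes the 2 BSO effects, which share no array, had a Pearson correlation of -0.01 and a Spearman correlation of 0.00, given as a description over genes that are not independent. Subtracting one effect from the other left 409 genes (2.19%) on the higher side by 2-fold or more and 187 (1.00%) on the lower side, with 37 and 11 past 4-fold. The split depended on the scaling, with 267 higher and 336 lower under median scaling and 810 higher and 83 lower under spike-in scaling, and with normexp background correction 117 were higher and 45 lower. The median difference was -0.03 and its SD over genes 0.42, and 46.1% of the genes lay above 0. The BSO effect lay above 0 in 44.5% of all genes with TGZ and in 51.1% with RGZ, and in the difference 82.0% of the genes lay within 0.5 on the log2 scale.

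**Figure D1:**
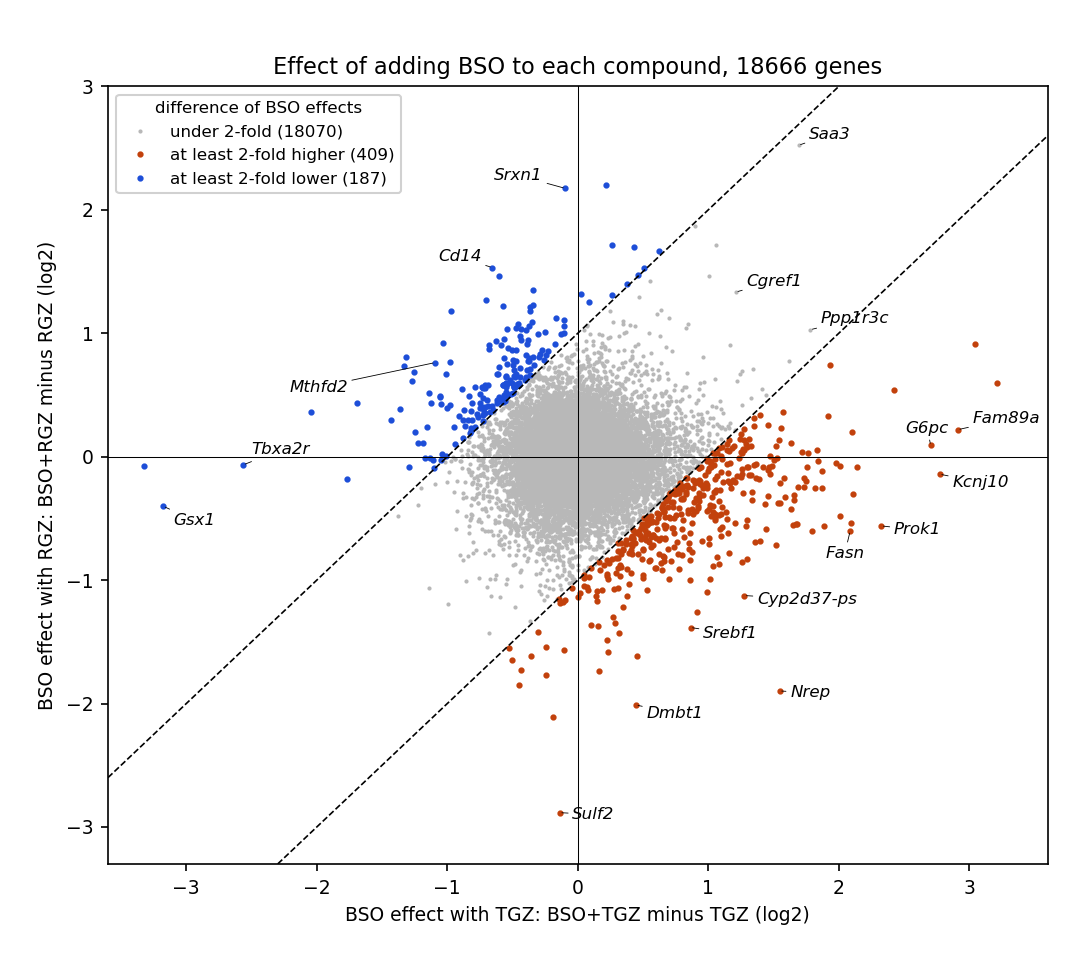
Effect of adding BSO with TGZ (horizontal axis, log2) against that with RGZ (vertical axis, log2) for the 18666 genes, 1 point per gene. The dashed lines mark a 2-fold difference between the effects. The 409 genes to the lower right and the 187 to the upper left lie past them, with Sulf2 and Nrep far below 0 on the RGZ axis and Srxn1 far above it.

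The called genes fell into classes by which of the BSO effects passed 2-fold. Of the 409 higher genes, 162 were at least 2-fold higher with BSO for TGZ only, 45 were at least 2-fold lower with BSO for RGZ only, 2 did both, and 200 did neither but were past 2-fold once one effect was subtracted from the other. Of the 187 lower genes, 33 were at least 2-fold lower for TGZ only, 32 at least 2-fold higher for RGZ only, none did both, and 122 did neither. Among the higher genes the TGZ array stood farthest from the mean of the other 3, on the low side, in 246 (60.1%), the BSO+RGZ array on the low side in 71 (17.4%), the RGZ array on the high side in 62 (15.2%) and the BSO+TGZ array on the high side in 30 (7.33%). Over all 18666 genes these shares were 17.1% for TGZ, 14.5% for BSO+RGZ, 8.93% for RGZ and 5.54% for BSO+TGZ. Among the lower genes the RGZ array stood farthest on the low side in 79 (42.2%). The TGZ array did so on the high side in 74 (39.6%). Over all genes these shares were 12.8% for RGZ and 22.4% for TGZ. The sign of the difference fixes the side on which each array can stand farthest. The all-gene shares count genes of both signs, 46.1% of them with a positive difference, which by itself lowers these shares. They are therefore no level for the called genes, which were also chosen on the same arrays.

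The vehicle array, which the difference does not use, gives these counts a level to be read against. Of 407 higher genes measured with vehicle, BSO+TGZ lay at least 2-fold below vehicle in 193 (47.4%), against 276 (67.8%) for TGZ, where the shares over all genes were 4.97% and 8.71%. In 314 of them (77.1%) the BSO+TGZ signal lay between that of TGZ and that of vehicle, as it did in 59.2% of all genes. BSO+RGZ lay at least 2-fold below vehicle in 111 of the 407 (27.3%), against 33 (8.11%) for RGZ, where the shares over all genes were 2.99% and 1.14%. Of 168 lower genes measured with vehicle, 64 (38.1%) lay at least 2-fold above it with BSO+TGZ, against 97 (57.7%) with TGZ, and 51 (30.4%) with BSO+RGZ, against 26 (15.5%) with RGZ. Over all genes these shares were 7.30% with BSO+TGZ, 9.06% with TGZ, 2.68% with BSO+RGZ and 1.27% with RGZ. More of the higher genes were thus low with TGZ than with BSO+TGZ, and more of the lower genes were high with TGZ than with BSO+TGZ. With RGZ the order was turned: more of the higher genes were low, and more of the lower genes high, with BSO+RGZ than with RGZ. The genes were called on a difference that contains BSO+TGZ minus TGZ and subtracts BSO+RGZ minus RGZ. Both orders therefore follow largely from how the genes were chosen and are no separate result. The TGZ array enters both the difference and its distance from vehicle, so an error in it would move both counts together.

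Genes of fat and glucose metabolism were among the largest positive differences. Fasn encodes fatty acid synthase, which builds palmitate. Its scaled log2 signal was 5.46 with BSO+TGZ and 3.37 with TGZ, 6.44 with BSO+RGZ and 7.04 with RGZ, and 7.60 with vehicle. BSO+TGZ was 4.25-fold above TGZ and BSO+RGZ 1.52-fold below RGZ, a difference of 2.69 (interval 2.12 to 3.25). The signal with TGZ was thus the lowest of the 5, and BSO+TGZ lay between it and the RGZ arrays. Srebf1, the transcription factor that drives Fasn, stood at 5.06 with BSO+TGZ and 4.2 with TGZ, 5.16 with BSO+RGZ and 6.54 with RGZ, and 6.51 with vehicle. Here BSO+TGZ was above TGZ by 0.86 and BSO+RGZ 2.61-fold below RGZ, a difference of 2.25, and BSO+TGZ and BSO+RGZ were at almost the same level. Mid1ip1, which helps acetyl-CoA carboxylase to polymerise, followed Fasn with 3.14 with BSO+TGZ and 1.34 with TGZ, 4.23 with BSO+RGZ and 4.83 with RGZ, and 5.49 with vehicle, and its difference was 2.40. The probe of Fasn lies on chromosome 11 at 120668460 to 120668519, that of Srebf1 on chromosome 11 at 60013214 to 60013273 and that of Mid1ip1 on chromosome X at 10296703 to 10296762 (build mm9).

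Of 21 measured genes of fatty acid and triglyceride synthesis, 3 were called higher in the difference and none lower, against 2.19% and 1.00% of all genes. The median was 0.22 against -0.03 for all genes. The 3 called genes were Fasn, Srebf1 and Elovl6, which lengthens palmitate and was at 1.20. Others of the same pathway stayed under 2-fold: Acaca, acetyl-CoA carboxylase, was at 0.74, Acly, ATP citrate lyase, at 0.39, and Scd1, stearoyl-CoA desaturase, at -0.50. G6pc encodes glucose-6-phosphatase, through which liver releases glucose, and was 4.53 with BSO+TGZ and 1.82 with TGZ, 5.93 with BSO+RGZ and 5.84 with RGZ, and 5.53 with vehicle. Its difference of 2.61 (interval 2.05 to 3.18) came from TGZ, where BSO+TGZ was 6.52-fold above TGZ, while BSO+RGZ and RGZ differed by 0.09. The TGZ array was again the one apart from the other 4. It was the only gene of 24 on the list of gluconeogenesis, glycogen and FOXO1 targets past 2-fold, and the median of that list was 0.06. Pck1, the other rate-controlling gene of gluconeogenesis, differed by -0.02. Ppp1r3c, a glycogen-targeting subunit of protein phosphatase 1, was at least 2-fold higher with BSO for both compounds, by 1.78 with TGZ and 1.03 with RGZ.

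Nrep, a small protein first described in regenerating neurons, had the largest difference of all 18666 genes. Its signal was 2.07 with BSO+TGZ and 0.52 with TGZ, 0.73 with BSO+RGZ and 2.63 with RGZ, and 3.30 with vehicle. BSO+TGZ was 2.92-fold above TGZ and BSO+RGZ 3.73-fold below RGZ, which gave 3.44 (interval 2.88 to 4.01), a 10.9-fold difference. It was the clearest case of a gene for which the compounds traded places: without BSO TGZ was 4.31-fold below RGZ, and with BSO the TGZ group was 2.52-fold above the RGZ group. Cyp2d37-ps, a pseudogene of the Cyp2d family of cytochromes P450, was the other gene at least 2-fold in opposite directions, at 2.86 with BSO+TGZ and 1.58 with TGZ, 3.73 with BSO+RGZ and 4.85 with RGZ, and 5.56 with vehicle. Whether its probe also binds transcripts of the related Cyp2d genes was not tested. Its difference was 2.40.

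In 2 of the largest differences the BSO effect with TGZ was small. Sulf2, a secreted enzyme that trims sulfate groups from heparan sulfate, was 1.98 with BSO+TGZ and 2.12 with TGZ, 0.92 with BSO+RGZ and 3.80 with RGZ, and 1.46 with vehicle. It was the RGZ array that stood high, 5.08-fold above vehicle, and BSO+RGZ was 7.38-fold below it (difference 2.75, interval 1.91 to 3.58). The interval of Sulf2 was wider than usual, since the scanner software gave its RGZ spot a larger error. Dmbt1, a secreted scavenger receptor protein of epithelia, was 4.27 with BSO+TGZ and 3.82 with TGZ, -0.40 with BSO+RGZ and 1.61 with RGZ, and 3.98 with vehicle. With RGZ it lay 5.15-fold below vehicle and with BSO+RGZ 20.8-fold below, while both TGZ arrays stayed near vehicle (difference 2.46). Spsb4, an adaptor of a ubiquitin ligase, had an effect of 0.91 with TGZ and -1.26 with RGZ, a difference of 2.17.

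The remaining large positive differences belonged to genes that were low with TGZ. Fam89a was 0.56 with BSO+TGZ and -2.36 with TGZ, 3.02 with BSO+RGZ and 2.80 with RGZ, and 2.80 with vehicle, so that TGZ lay 35.8-fold below vehicle, BSO+TGZ 4.75-fold below, and neither RGZ array far from it. Wnt5b, a secreted Wnt ligand, was 0.37 with BSO+TGZ and -1.73 with TGZ, and 2.21 with BSO+RGZ and 2.75 with RGZ, with 2.61 for vehicle. Kcnj10, an inwardly rectifying potassium channel, was -1.07 with BSO+TGZ and -3.85 with TGZ, 0.43 with BSO+RGZ and 0.58 with RGZ, and -0.13 with vehicle. Prok1, the angiogenic peptide prokineticin 1, was -0.71 with BSO+TGZ and -3.04 with TGZ, -0.03 with BSO+RGZ and 0.53 with RGZ, and 1.02 with vehicle. All 4 had a BSO effect past 4-fold with TGZ, while the effect with RGZ lay between -0.56 for Prok1 and 0.22 for Fam89a. The kinase gene Dclk3 (difference 2.45), BC039771 (2.50) and Gm26588 (2.41) had the same shape. Several of these genes were dim on the TGZ array. With normexp background correction the difference was 1.04 for Kcnj10, 1.24 for Prok1, 1.20 for Dclk3, 1.61 for Fam89a, 1.74 for Wnt5b, 1.87 for Gm26588 and 0.96 for BC039771, the last of which was under 2-fold. Fasn, Srebf1, Mid1ip1, G6pc, Nrep, Sulf2 and Dmbt1 stayed past 4-fold with the same correction.

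**Figure D2:**
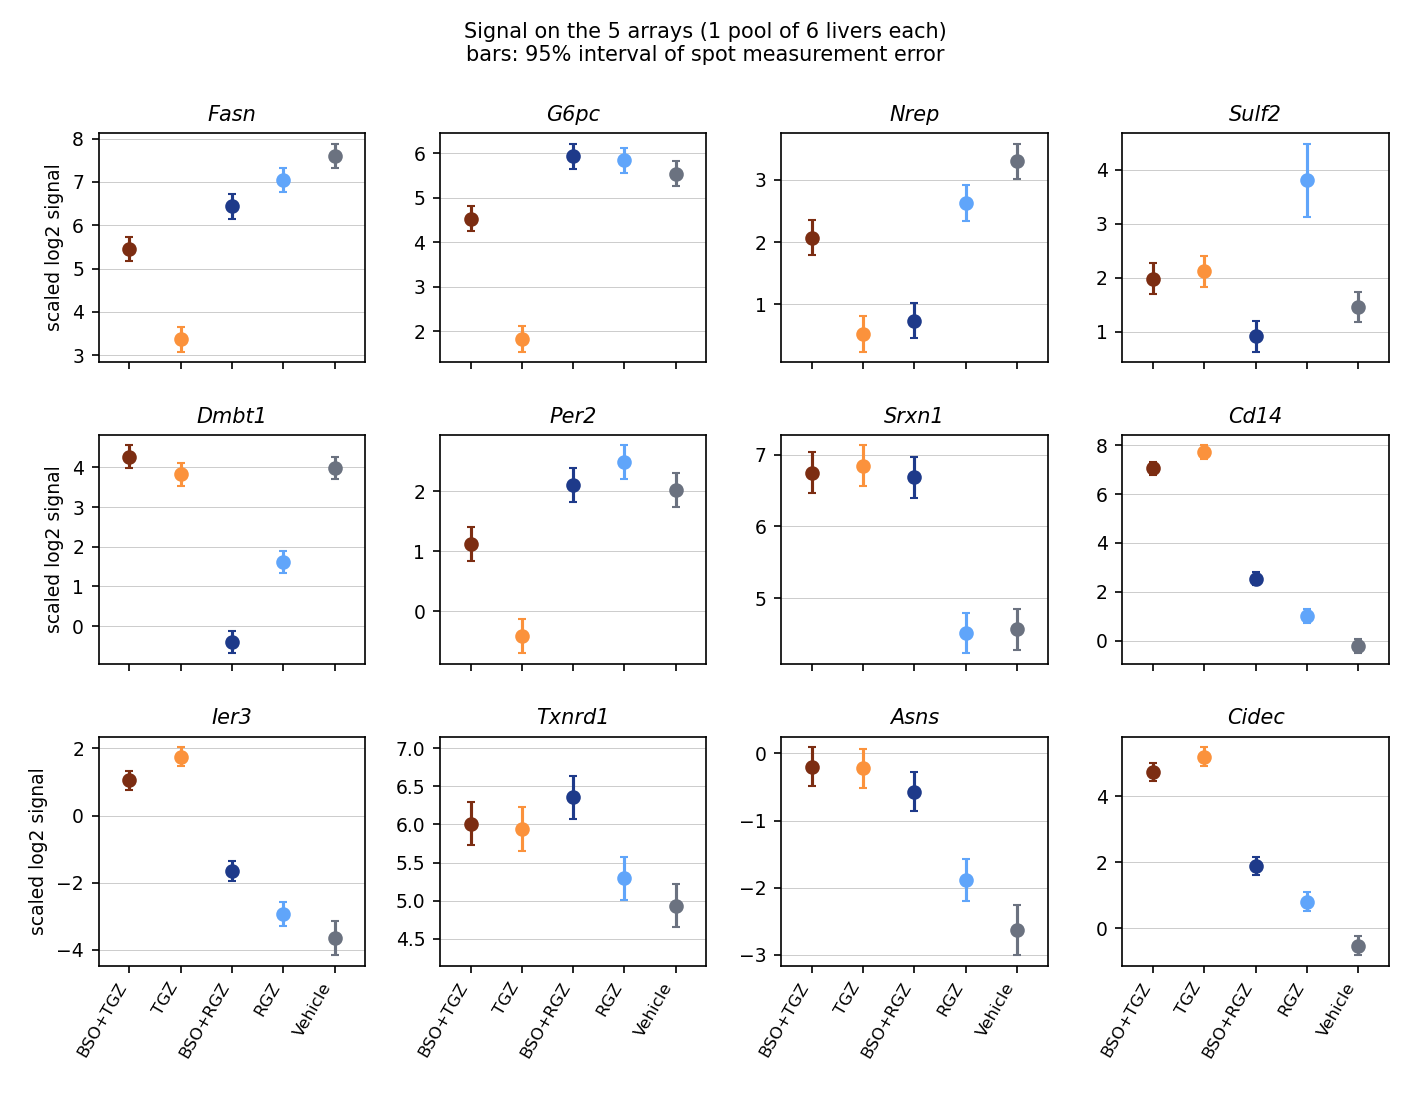
Scaled log2 signal of 12 genes on the 5 arrays, in the order BSO+TGZ, TGZ, BSO+RGZ, RGZ and vehicle. Bars are 95% intervals of spot measurement error, and each vertical axis has its own range of at least 3 log2 units. TGZ is the lowest point for Fasn, G6pc and Per2, RGZ the highest for Sulf2, and for Srxn1 the RGZ and vehicle points lie below the other 3.

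Several output genes of the circadian clock were higher in the difference. The clock runs on BMAL1 and CLOCK, whose repressors include the PER proteins, and reaches metabolism through the PAR bZIP factors DBP, HLF and TEF and through nuclear receptors. Of 17 measured genes 4 were called higher and none lower (median 0.15), and the same 4 were at least 2-fold higher with BSO for TGZ, against 2.19% of all genes called higher and 1.09% higher with BSO for TGZ. Per2 was 1.12 with BSO+TGZ and -0.41 with TGZ, 2.10 with BSO+RGZ and 2.48 with RGZ, and 2.02 with vehicle, a difference of 1.91 (1.27 as the mean over its probes). Dbp was 2.83 with BSO+TGZ and 1.69 with TGZ, 5.25 with BSO+RGZ and 5.69 with RGZ, and 5.73 with vehicle, a difference of 1.58. Both were lowest with TGZ, and BSO+TGZ stayed 1.86-fold below vehicle for Per2 and 7.49-fold below for Dbp. Hlf differed by 1.56. The core activator gene Arntl, which encodes BMAL1, was at -0.67 with an interval that includes 0, and Clock at -0.22. Per3 was not well above background with TGZ. Its difference was at least 7.11-fold higher when the floor of that array was put in its place.

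Among bile acid genes a repressor and an enzyme of bile acid synthesis were low with TGZ. Nr0b2 encodes SHP, the repressor through which bile acids shut off their own synthesis, and was -1.01 with BSO+TGZ and -2.68 with TGZ, -0.58 with BSO+RGZ and -0.03 with RGZ, and 0.88 with vehicle. BSO+TGZ was 3.19-fold above TGZ, and the difference was 2.22 (1.05 with normexp). Cyp7a1 encodes the enzyme that commits cholesterol to bile acids and was not well above background with TGZ. With the floor of the TGZ array its difference was at least 11.8-fold higher, from -1.09 with BSO+TGZ, 2.70 with BSO+RGZ and 3.43 with RGZ. Slco1a1, an uptake transporter, differed by 1.06, but by 0.93 as the mean over its probes and 0.80 with normexp, and it was under 2-fold with median scaling too. The list as a whole had 2 of 23 measured members higher and none lower, against 2.19% and 1.00% of all genes, and a median of 0.05. Among glucocorticoid receptor targets Tsc22d3, which encodes the anti-inflammatory protein GILZ, was at 1.71, from 3.50 with BSO+TGZ and 2.50 with TGZ, and 3.74 with BSO+RGZ and 4.44 with RGZ. The list had 4 of 16 members above 0, a median of -0.36, and 3 lower by 2-fold or more: Cdkn1a, Sult1e1 and Zbtb16. Over all genes 46.1% lay above 0 and 1.00% were called lower. Sult1e1 was under 2-fold with spike-in scaling and normexp, and Zbtb16 with these and with the mean or median over its probes.

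Genes of cholesterol synthesis and uptake, which SREBP2 drives when sterols are scarce, were higher as a group. Of 24 members 21 lay above 0, with a median of 0.50, where 46.1% of all genes lay above 0. Called higher were 3 of them and called lower none, against 2.19% and 1.00% of all genes. Among the 3 were Stard4, a sterol carrier, at 1.30, and Insig1, which holds SREBPs in the endoplasmic reticulum, at 1.24. Insig1 was 0.60 with BSO+TGZ and 0.46 with TGZ, -0.18 with BSO+RGZ and 0.91 with RGZ, and 2.91 with vehicle. The lowest of the 5 was thus BSO+RGZ, 2.13-fold below RGZ. The median BSO effect of the group was 0.17 with TGZ (16 of 24 above 0) and -0.27 with RGZ (3 above 0), against 44.5% of all genes with TGZ and 51.1% with RGZ. Between 0.35 and 0.73 over the 12 alternative settings, its median stayed above 0. Single genes were less firm: Insig1 (0.96) was under 2-fold with normexp and Stard4 (0.74) with the mean or median over its probes.

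Steroid dehydrogenases were higher in the difference through the RGZ arrays. Hsd3b2, Hsd3b3 and Hsd3b6 belong to the 3 beta-hydroxysteroid dehydrogenases, which lie side by side in the genome. Hsd3b2 was 0.11 with BSO+TGZ and -0.35 with TGZ, -0.64 with BSO+RGZ and 0.98 with RGZ, and 2.08 with vehicle, a difference of 2.07. Hsd3b3 was -0.16 with BSO+TGZ and -0.47 with TGZ, -0.94 with BSO+RGZ and 0.49 with RGZ, and 1.71 with vehicle, a difference of 1.74. Hsd3b6 was -1.70 with BSO+TGZ and -1.86 with TGZ, -2.83 with BSO+RGZ and -1.10 with RGZ, and 0.35 with vehicle, a difference of 1.89. In each of them BSO+RGZ was the lowest of the 5 arrays, between 2.69-fold (Hsd3b3) and 3.32-fold (Hsd3b6) below RGZ, and vehicle the highest. The 3 probes share no stretch of 20 bases, and cross-hybridisation between the related genes was not tested. Hsd3b6 was at 0.71 with normexp. With Srd5a1, a steroid 5 alpha-reductase at 1.34, and Slco1a1, 5 of 17 measured members of the list of steroid and sex-biased genes were higher and none lower. Over all genes 2.19% were called higher and 1.00% lower. All 17 had a BSO effect below 0 with RGZ (median -0.35), where 51.1% of all genes lay above 0. With TGZ 8 of them lay above 0 (median -0.09), close to the 44.5% of all genes.

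Targets of NRF2 were lower in the difference as a list, with a BSO effect above 0 in most of them with RGZ and a smaller one with TGZ. Of 28 measured targets 4 were at least 2-fold higher with BSO for RGZ and 25 lay above 0 (median 0.41), against 2 past 2-fold and 18 above 0 for TGZ (median 0.09). Over all genes 51.1% lay above 0 with RGZ and 44.5% with TGZ, and 0.305% and 1.09% were at least 2-fold higher with BSO. In the difference 2 were at least 2-fold lower and 1 higher, where the shares over all genes were 1.00% and 2.19%. The median of the list was -0.30 and stayed below 0 under all 12 alternatives (-0.45 to -0.07). Srxn1 encodes sulfiredoxin, which repairs oxidised peroxiredoxins, and was the gene with the largest difference of the list: 6.75 with BSO+TGZ and 6.84 with TGZ, 6.68 with BSO+RGZ and 4.51 with RGZ, and 4.56 with vehicle. BSO+RGZ was 4.51-fold above RGZ, while BSO+TGZ and TGZ differed by -0.10 (difference -2.27, interval -2.84 to -1.71). With BSO, RGZ thus reached the level that TGZ had without it. The probe lies on chromosome 2 at 151937009 to 151937068 (mm9).

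Some other members also had a higher BSO effect with RGZ than with TGZ, at a smaller size. Their levels beside vehicle were not all like those of Srxn1: TGZ minus vehicle was 2.28 for Srxn1 but 0.02 for Gclc and 0.25 for Cbr3. Txnrd1, thioredoxin reductase, was 6.01 with BSO+TGZ and 5.94 with TGZ, 6.36 with BSO+RGZ and 5.30 with RGZ, and 4.93 with vehicle, a difference of -0.99. Gclc, the catalytic subunit of the ligase that BSO inhibits, was 5.75 with BSO+TGZ and 5.70 with TGZ, 6.03 with BSO+RGZ and 5.0 with RGZ, and 5.68 with vehicle, a difference of -0.98. Both were just short of 2-fold, and in both BSO+RGZ was the highest of the 5 arrays. Cbr3, a carbonyl reductase, passed it at -1.01, with effects of 0.46 with TGZ and 1.47 with RGZ, but not with normexp (-0.84), spike-in scaling (-0.77) or the percentile over probes well above background. Gclm, the modifier subunit of the same ligase, differed by -0.05, Gss, glutathione synthetase, by -0.17 and Gsr, glutathione reductase, by -0.56. Nqo1, a quinone reductase, was at -0.55. Of the glutathione transferases Gstp1 was highest with BSO+RGZ, at 4.67 with BSO+TGZ and 4.42 with TGZ, and 5.91 with BSO+RGZ and 4.73 with RGZ, and differed by -0.93; no member of the list of glutathione transferases and peroxidases passed 2-fold. The cystine transporter gene Slc7a11 was not well above background on all 4 arrays and has no value here.

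In 6 of the 28 NRF2 targets the difference was above 0, as in 46.1% of all genes, and Osgin1 and Hmox1 were the highest of them. Osgin1, an oxidative stress-induced growth inhibitor, was 5.45 with BSO+TGZ and 3.91 with TGZ, 5.33 with BSO+RGZ and 5.19 with RGZ, and 5.85 with vehicle, so that only TGZ was low and the difference was 1.40. Hmox1, heme oxygenase 1, was 7.53 with BSO+TGZ and 6.43 with TGZ, 3.29 with BSO+RGZ and 2.90 with RGZ, and 2.19 with vehicle. BSO+TGZ was 2.14-fold above TGZ and BSO+RGZ 1.31-fold above RGZ, and the difference of 0.71 was under 2-fold. Chac2, which degrades glutathione, was 0.87 with BSO+TGZ and -0.18 with TGZ, and 1.92 with BSO+RGZ and 2.44 with RGZ (difference 1.56), and was the one gene past 2-fold among 14 of glutathione synthesis and recycling. That list had 4 members above 0 and a median of -0.17, which turned to 0.06 with spike-in scaling. Of all genes 2.19% were called higher and 1.00% lower.

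Promoter sequence of genes that were higher with BSO+RGZ than with RGZ is shown for the motifs known for their pathways. Windows came from RefSeq promoters (GRCm38.p6, 250 bases before and 50 after the start site), which matched 11386 of the 18666 genes, and both strands were searched. Capitals mark the letters that the motif fixes, and each line runs 5′ to 3′ on the gene's strand. TGANTCA is the AP-1 type core found inside many antioxidant response elements and TGACNNNGC the core of that element. The 2 can overlap at 1 site.
Srxn1, chr2:152105400-152105507, plus strand: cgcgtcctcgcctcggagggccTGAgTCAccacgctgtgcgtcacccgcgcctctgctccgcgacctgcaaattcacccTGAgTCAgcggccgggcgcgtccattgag
Gstp1, chr19:4037958-4038008, minus strand: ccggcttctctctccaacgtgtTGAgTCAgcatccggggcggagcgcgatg
Txnrd1, chr10:82859092-82859144, plus strand: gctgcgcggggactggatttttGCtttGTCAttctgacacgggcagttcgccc
The Srxn1 window holds TGANTCA at 2 places, starting 102 and 45 bases before the start site. TGACNNNGC was present in 11 of 25 NRF2 targets with a promoter (44.0%), 16.2% of all measured genes, 15.9% of those called higher and 14.4% of those called lower. TGANTCA was present in 5 of the 25 (20%), 6.97% of measured genes, 7.94% of those called higher and 11.1% of those called lower. The list was drawn up from known NRF2 targets, so the match describes it and shows no binding in these livers.

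The integrated stress response, in which ATF4 switches on genes of amino acid supply and repair, was lower in the difference as a list. Of 21 measured members 4 were called lower, none higher and 2 above 0 (median -0.53). Over all genes 1.00% were called lower, 2.19% were called higher and 46.1% lay above 0. The median BSO effect was -0.40 with TGZ and 0.07 with RGZ. Asns, asparagine synthetase, was -0.20 with BSO+TGZ and -0.23 with TGZ, -0.57 with BSO+RGZ and -1.88 with RGZ, and -2.63 with vehicle, a difference of -1.29. Fgf21, a hormone of the fasting and stressed liver, was 2.04 with BSO+TGZ and 1.66 with TGZ, 3.90 with BSO+RGZ and 2.51 with RGZ, and -0.27 with vehicle, a difference of -1.02. In both the BSO effect was larger with RGZ than with TGZ, where BSO+TGZ and TGZ lay close together. Ddit3, which encodes the stress factor CHOP, was -1.28 with BSO+TGZ and -0.55 with TGZ, and 0.62 with BSO+RGZ and 0.06 with RGZ, lower with BSO for TGZ and higher for RGZ (difference -1.29). Mthfd2, a mitochondrial folate enzyme, had the same signs and a difference of -1.86 but was dim on all 4 arrays. Chac1, the stress-induced relative of Chac2, differed by -0.59, Atf4 itself by -0.53 and Trib3 by -0.88. With normexp Mthfd2 (-0.73), Asns (-0.76), Ddit3 (-0.93) and Fgf21 (-0.93) were under 2-fold, and Fgf21 also with spike-in scaling (-0.79) and the percentile over probes well above background, while the median of the list stayed between -0.68 and -0.30.

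Chaperones of the endoplasmic reticulum and genes of the unfolded protein response differed by small steps in nearly every member. All but 1 of the 22 lay below 0 in the difference (median -0.28), where 46.1% of all genes lay above 0. With RGZ 21 had a BSO effect above 0 (median 0.31), against 13 with TGZ (median 0.09). These shares were 51.1% with RGZ and 44.5% with TGZ over all genes. None of the 22 passed 2-fold in the difference. Dnajb9, a co-chaperone of the lumen, came closest at -0.99 from 3.39 with BSO+TGZ and 3.71 with TGZ, 4.61 with BSO+RGZ and 3.94 with RGZ, and 2.11 with vehicle. Derl3, which helps to pull misfolded proteins out for degradation, was 0.46 with BSO+TGZ and -0.44 with TGZ, 4.12 with BSO+RGZ and 2.25 with RGZ, and 4.05 with vehicle. It was higher with BSO for both compounds, by 0.90 with TGZ and 1.86 with RGZ, a difference of -0.97. Hspa5, the main chaperone BiP, differed by -0.73 and Syvn1, the ubiquitin ligase of this pathway, by -0.71. The median of the list stayed between -0.43 and -0.05 under the alternatives.

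The endoplasmic reticulum stress element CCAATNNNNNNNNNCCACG, bound by NF-Y and ATF6, was present in 9 of 19 genes of that list with a promoter (47.4%) and in 0.184% of all measured genes. The ATF4 type motif TGATGNAA was present in 7 of 21 integrated stress response genes (33.3%), 3.23% of measured genes, 3.97% of those called higher and 11.1% of those called lower (10 of 90). Windows of 5 of the stress genes described above read as follows, with the fixed letters of the motif, on either strand, in capitals.
Asns, chr6:7693210-7693254, minus strand: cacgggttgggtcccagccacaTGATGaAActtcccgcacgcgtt
Fgf21, chr7:45615600-45615651, minus strand: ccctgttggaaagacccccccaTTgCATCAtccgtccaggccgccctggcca
Derl3, chr10:75893220-75893282, plus strand: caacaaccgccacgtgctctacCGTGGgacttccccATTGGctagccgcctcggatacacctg
Syvn1, chr19:6046510-6046572, plus strand: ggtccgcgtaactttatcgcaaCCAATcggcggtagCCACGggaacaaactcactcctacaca
Hspa5, chr2:34772003-34772065, plus strand: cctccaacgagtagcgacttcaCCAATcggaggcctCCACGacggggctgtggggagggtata
Both lists were drawn up from known genes of these responses, so the shares of 47.4% and 33.3% describe the lists. The windows show matches of letters in promoter sequence and no measurement of binding.

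**Figure D3:**
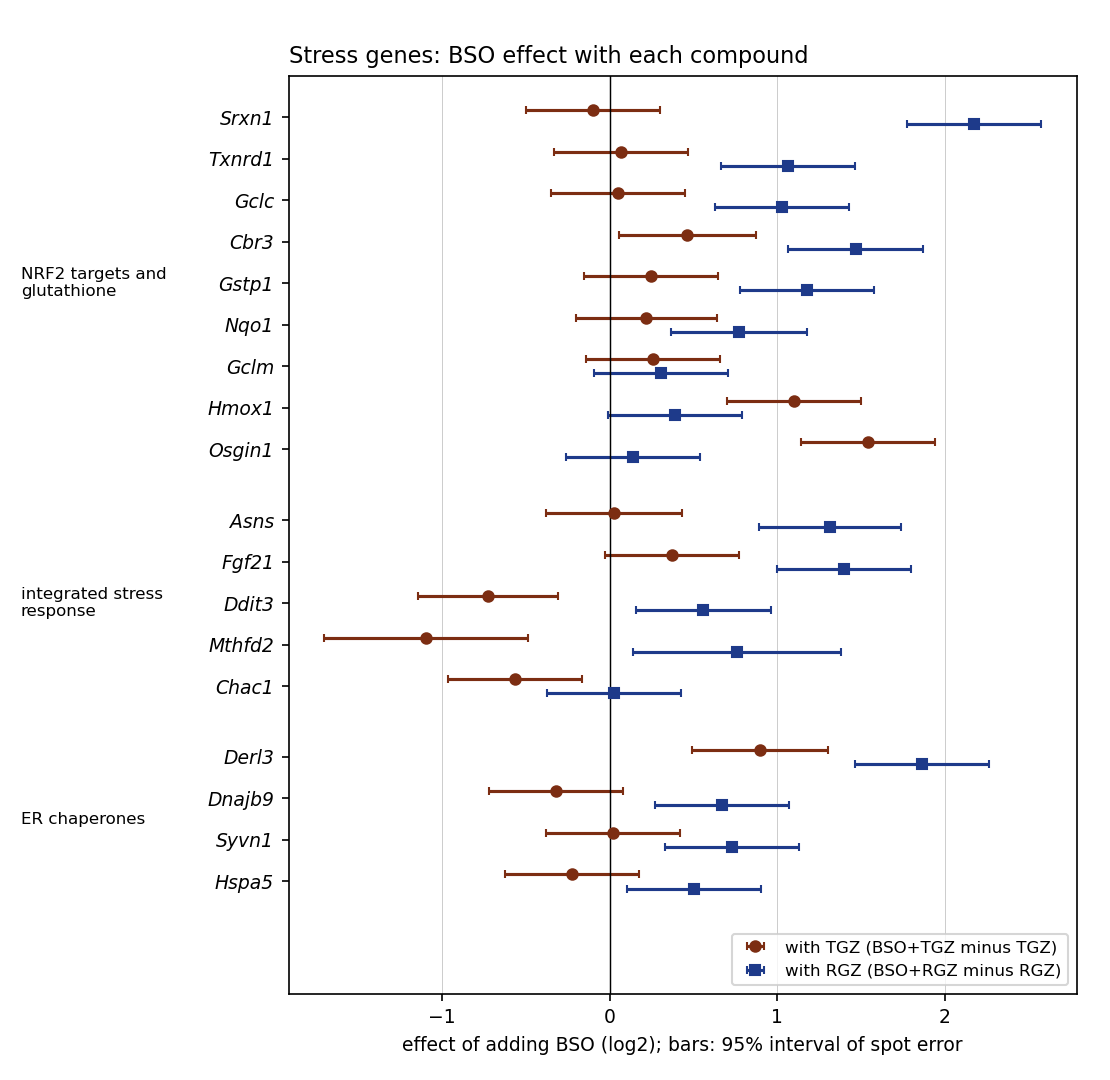
Effect of adding BSO (horizontal axis, log2) with TGZ (circles, above) and with RGZ (squares, below) for 18 stress genes in 3 groups. Bars are 95% intervals of spot measurement error. For Srxn1, Txnrd1, Gclc and Asns the interval with RGZ lies wholly above that with TGZ, for Gclm the intervals overlap, and for Hmox1 and Osgin1 the order is turned.

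Several signalling and inflammatory genes that were high with TGZ were lower in the difference. Cd14, the co-receptor for bacterial lipopolysaccharide, was 7.05 with BSO+TGZ and 7.71 with TGZ, 2.55 with BSO+RGZ and 1.01 with RGZ, and -0.23 with vehicle. BSO+TGZ was 1.57-fold below TGZ and BSO+RGZ 2.89-fold above RGZ (difference -2.19, interval -2.75 to -1.62), yet with BSO the TGZ group still stood 22.8-fold above the RGZ group. Ier3, an immediate early regulator of cell survival, was 1.05 with BSO+TGZ and 1.75 with TGZ, -1.66 with BSO+RGZ and -2.93 with RGZ, and -3.66 with vehicle, a difference of -1.97 (-1.18 with normexp). In both the distance between the compounds was smaller with BSO than without. Among 23 immediate early genes 2 passed 2-fold on the lower side and none on the higher, against 1.00% and 2.19% of all genes. The 2 were Ier3 and Btg2, an anti-proliferative gene at -1.56, and the median of the list was -0.50. When BSO was added, 2 of 23 members lay above 0 with TGZ (median -0.35), against 12 with RGZ (median 0.08), where the shares over all genes were 44.5% with TGZ and 51.1% with RGZ. Egr1, a zinc finger factor, and Myc lay on the other side at 0.75 and 0.77, with BSO effects of -0.68 with TGZ and -1.43 with RGZ for Egr1 and -0.23 with TGZ and -1.0 with RGZ for Myc.

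Of the p53 targets, Cdkn1a, which encodes the cell cycle inhibitor p21, was 5.09 with BSO+TGZ and 5.46 with TGZ, 1.99 with BSO+RGZ and 0.81 with RGZ, and -0.91 with vehicle, a difference of -1.55. Btg2 and the stress sensor Gadd45g (-1.22, and -0.99 with spike-in scaling) were the other two of 22 past 2-fold, and the median was -0.29. Acute phase proteins, the plasma proteins that liver makes in inflammation, had 3 of 24 members lower, none higher and a median of -0.34. For these and the p53 targets the shares over all genes were 1.00% called lower and 2.19% called higher. Lcn2, lipocalin 2, was 9.37 with BSO+TGZ and 9.74 with TGZ, 9.16 with BSO+RGZ and 8.10 with RGZ, and 3.27 with vehicle, a difference of -1.44. RGZ was the lowest of the 4 thiazolidinedione arrays, and vehicle lay far below all of them. Steap4 differed by -1.15 and Serpina3n by -1.09, and both were under 2-fold with spike-in scaling, Serpina3n also with quantile normalization and normexp. Saa3, an inducible serum amyloid gene, was at least 2-fold higher with BSO for both compounds, at 6.18 with BSO+TGZ and 4.49 with TGZ, and 9.26 with BSO+RGZ and 6.74 with RGZ, and its difference of -0.83 was under 2-fold. Socs3, the feedback inhibitor of interleukin 6 signalling, was at -1.15 (-0.92 with spike-in scaling). Interferon-stimulated genes leaned the other way by small steps, with 24 of 26 above 0 and a median of 0.23, none past 2-fold. Over all genes 46.1% lay above 0.

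Targets of PPAR gamma, the receptor both compounds activate, were split. Cidec, a lipid droplet protein, was 4.74 with BSO+TGZ and 5.21 with TGZ, 1.88 with BSO+RGZ and 0.81 with RGZ, and -0.54 with vehicle, a difference of -1.54. G0s2, an inhibitor of lipolysis, was 3.19 with BSO+TGZ and 1.43 with TGZ, 4.90 with BSO+RGZ and 4.88 with RGZ, and 2.47 with vehicle, a difference of 1.74. With BSO the compounds were closer in both genes, in Cidec through 1.08 with RGZ and in G0s2 through 1.76 with TGZ. Fabp4, a fatty acid carrier, differed by -0.92, Pdk4, which shuts off pyruvate oxidation, by -0.81 and Pparg itself by -0.14. The list had 1 member higher and 1 lower of 19, and its median of -0.17 turned to 0.06 with spike-in scaling. For this list and the next, the shares over all genes were 2.19% called higher and 1.00% called lower. Of 31 genes of fatty acid oxidation and other PPAR alpha targets, 2 were higher, Acot3 (1.81, and 2.40 as the mean over its probes) and Acot4 (1.02, under 2-fold with median scaling and normexp), related acyl-CoA thioesterase genes whose probes may bind both transcripts, and Fgf21 lower (median 0.04).

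Several of the remaining large negative differences rested on dim probes. Gsx1, a homeobox factor of the nervous system, was -3.11 with BSO+TGZ and 0.07 with TGZ, and -3.89 with BSO+RGZ and -3.48 with RGZ and not well above background with vehicle. Tbxa2r, the thromboxane A2 receptor, was -3.34 with BSO+TGZ and -0.78 with TGZ, -2.40 with BSO+RGZ and -2.33 with RGZ, and -2.12 with vehicle, and Gm35319 was -3.63 with BSO+TGZ and -1.58 with TGZ, and -2.76 with BSO+RGZ and -3.12 with RGZ. In all 3 the TGZ array stood above the others. The difference was -2.77 for Gsx1, -2.50 for Tbxa2r and -2.40 for Gm35319, and with normexp it was -1.62 for Gsx1, -1.18 for Tbxa2r and -0.96 for Gm35319. Bhlha15 encodes MIST1, a factor that shapes secretory cells, and was -3.59 with BSO+TGZ and -2.98 with TGZ, and 2.03 with BSO+RGZ and 0.57 with RGZ and not well above background with vehicle, so that it was high with RGZ and 2.76-fold higher still with BSO+RGZ (difference -2.07). Pard6g, a cell polarity protein, was 4.49 with BSO+TGZ and 5.47 with TGZ, 1.58 with BSO+RGZ and 0.82 with RGZ, and 0.64 with vehicle, a difference of -1.75. Mc3r, the melanocortin 3 receptor, differed by -1.79. Lipo4 (-1.74), Tchh (-1.69), Zfp469 (-1.66) and Adam12 (-1.59) were also among the 15 largest of consistent genes with a RefSeq symbol, and these 4 were under 2-fold with normexp.

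Few genes had a 2-fold effect in the same direction with both compounds when BSO was added. At least 2-fold the same way with both were 5 genes higher and 1 lower, among them Saa3 and Ppp1r3c. Cgref1, a secreted growth regulator with calcium-binding motifs, was -0.19 with BSO+TGZ and -1.40 with TGZ, 2.25 with BSO+RGZ and 0.92 with RGZ, and -0.93 with vehicle, with nearly equal effects of 1.21 with TGZ and 1.33 with RGZ and a difference of -0.12. Atp6v0a4, a subunit of the vacuolar proton pump, was -2.07 with BSO+TGZ and -3.08 with TGZ, and -0.70 with BSO+RGZ and -2.16 with RGZ, with effects of 1.00 with TGZ and 1.46 with RGZ, and was not well above background with vehicle. Lrrc14b, a leucine-rich repeat protein, was the fifth higher gene, at 1.06 with TGZ and 1.72 with RGZ, and AK044091 the lower one, at -1.14 with TGZ and -1.07 with RGZ. These last 2 were named after their values were seen. Of the 1063 genes well above background on 3 of the 4 arrays, 98 had a bound of at least 2-fold higher, with Cyp7a1 and Per3 the largest, and 26 one of at least 2-fold lower. The largest of these were Otos, at least 3.49-fold lower, and Gm36254, at least 3.40-fold lower, both dim with RGZ.

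Several gene groups had few or no members past 2-fold, where 2.19% of all genes were called higher and 1.00% lower. Subunits of the mitochondrial respiratory chain had a median of -0.09 with all 27 members between -0.19 and 0.10. Proteasome subunits had a median of -0.13 (30 members, 2 above 0), and hepatocyte markers one of -0.08 (18 members), none past 2-fold. The sign of the medians of these 3 lists turned with spike-in scaling, to 0.14, 0.11 and 0.15. When BSO was added to RGZ, 29 of 30 proteasome genes lay above 0 (median 0.21), against 22 with TGZ (median 0.06). Ribosome biogenesis factors had no member past 2-fold but 26 of 28 above 0 when BSO was added to RGZ (median 0.28), against 8 with TGZ (median -0.06, 51.1% and 44.5% of all genes), a median difference of -0.37. Drug-metabolizing cytochromes P450 had a median of 0.09 with 1 of 33 past 2-fold, Cyp2c55, which was near background (1.14, -0.06 with normexp, and under 2-fold with median scaling, quantile normalization and the mean over probes). Metallothioneins, heat shock proteins, glutathione transferases and peroxidases, methionine cycle enzymes, BCL2 family members, LXR targets and lysosomal genes had no member past 2-fold, and their medians lay between -0.17 and -0.01. Thioredoxins and peroxiredoxins with Srxn1 (median -0.03), cytokines and their inhibitors with Socs3 (0.08) and glucuronosyltransferases and sulfotransferases with Sult1e1 (0.11) had 1 lower member each. Hypoxia targets and glycolysis genes had 1 of 24 higher, the hexokinase gene Hk2 at 1.06, and 2 lower, among them Ankrd37 at -1.43, with a median of -0.22 that turned to 0.01 with spike-in scaling. Hk2 (0.12) and Ankrd37 (-0.59) were under 2-fold with normexp, Hk2 also with median scaling and quantile normalization. Cell cycle genes had a median of 0.01, with cyclin D1 (Ccnd1) at 1.30 and Aurka, a mitotic kinase, at 1.11 past 2-fold, Aurka at 0.41 with normexp and under 2-fold with median scaling too. No direction is read from the medians of these lists other than ribosome biogenesis, nor from those of the gluconeogenesis, bile acid, PPAR alpha, stellate cell, bile duct and erythroid lists, since their signs turned under median or spike-in scaling.

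**Figure D4:**
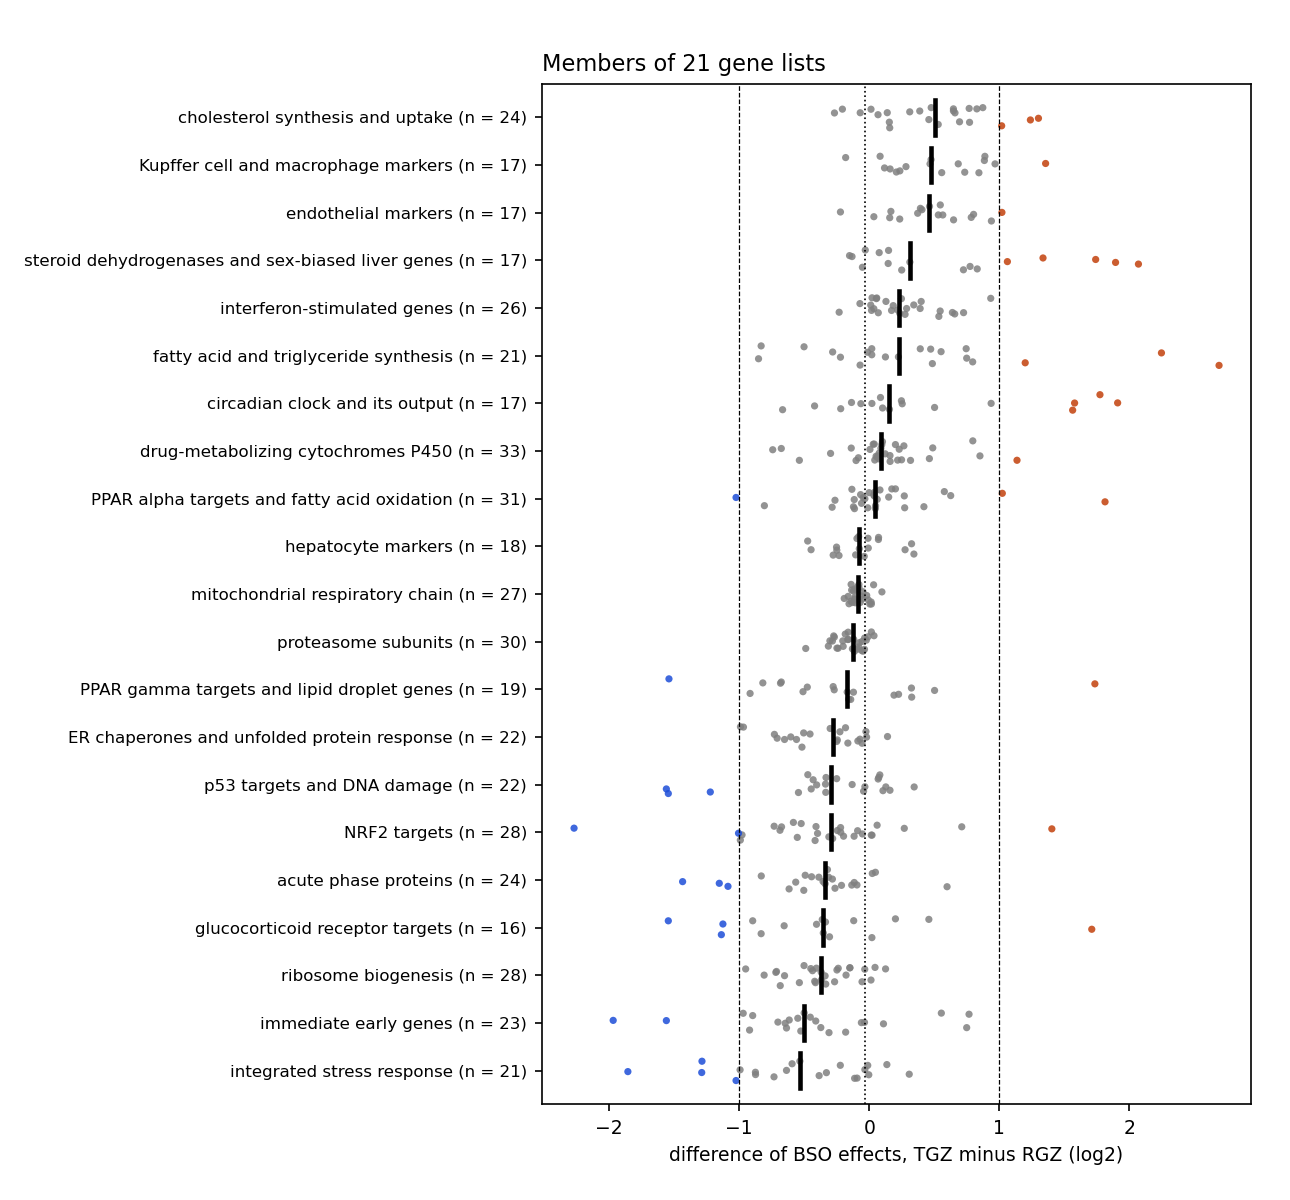
Difference of BSO effects (horizontal axis, log2) for the measured members of 21 gene lists, 1 point per gene, coloured where at least 2-fold. Thick bars are list medians, the dotted line is the median of all 18666 genes and dashed lines mark 2-fold. Medians run from -0.53 for the integrated stress response to 0.50 for cholesterol synthesis.

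Markers of macrophages and of endothelium were higher with BSO+TGZ than with TGZ by small steps. Of 17 measured Kupffer cell and macrophage markers 16 lay above 0 in the difference (median 0.47) and 14 when BSO was added to TGZ (median 0.51), against 46.1% and 44.5% of all genes. The summed scaled signal of the list was 128 with BSO+TGZ and 102 with TGZ, 96.9 with BSO+RGZ and 106 with RGZ, and 123 with vehicle. Timd4, a phosphatidylserine receptor of resident macrophages, was the one past 2-fold (1.36, 0.39 with normexp), and Ccr2 and Cx3cr1 were not well above background on all 4 arrays. Endothelial markers were alike, with 16 of 17 above 0 (median 0.46) and sums of 99.3 with BSO+TGZ and 77.9 with TGZ, 77.5 with BSO+RGZ and 82.8 with RGZ, and 92.0 with vehicle. Kdr, a receptor of vascular endothelial growth factor, passed 2-fold at 1.02, but not with median scaling. Of all genes 2.19% were called higher. In both lists the sums with BSO+RGZ and with TGZ were the lowest of the 5.

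Neutrophil markers had 2 of 14 members lower, against 1.00% of all genes, and a median of -0.26. The 2 were Lcn2, which is also an acute phase protein of hepatocytes, and Il1r2, the interleukin 1 decoy receptor at -1.12. Il1r2 was at -0.47 with normexp and -0.89 with spike-in scaling, under 2-fold in both. The summed signal of the neutrophil markers was 951 with BSO+TGZ and 1144 with TGZ, 722 with BSO+RGZ and 418 with RGZ, and 138 with vehicle. In the 4 groups with a thiazolidinedione Lcn2 alone made up most of that sum, and Clec4e and the granule genes Ltf, Ngp and Mmp9 were not measured on all 4 arrays. Lymphocyte markers had a median of 0.24 over 12 measured genes, erythroid markers 0.14 over 9, stellate cell and fibroblast markers 0.04 over 17 and bile duct markers -0.05 over 5, with Krt19 at 1.50 the one gene past 2-fold among them, and 0.56 with normexp. The part of a changed mixture of cells in the gene differences was not tested.

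The same numbers can be read as the difference between the compounds with and without BSO. Given with BSO, the compounds were at least 2-fold apart in 2168 genes (11.6%), against 2976 genes (15.9%) without BSO, at the same dose by weight and the same time. In 1668 genes they were apart in the same direction both times, 76.9% of the list with BSO and 56.1% of the list without. These 2 differences share no array, and across genes they had a Pearson correlation of 0.87 and a Spearman correlation of 0.81, given as a description. The compounds were closer to each other with BSO in 61.3% of all genes, in 308 of the 409 higher genes (75.3%) and in 153 of the 187 lower genes (81.8%). The called genes were chosen on the change between these 2 differences, from the same arrays. An error in the TGZ or RGZ array would enter both the choice and the distance without BSO. The shares of 75.3% and 81.8% may therefore follow from how the genes were chosen and are no separate result. The compounds were at least 2-fold apart in opposite directions without and with BSO in 2 genes, Nrep and Sulf2. In both genes TGZ was below RGZ without BSO and the TGZ group above the RGZ group with BSO. Dmbt1 went the other way from most, being 25.4-fold higher in the TGZ group with BSO and 4.63-fold higher without. Pdk4, high with TGZ, was 43.5-fold higher in the TGZ group with BSO and 76.0-fold higher without.

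**Figure D5:**
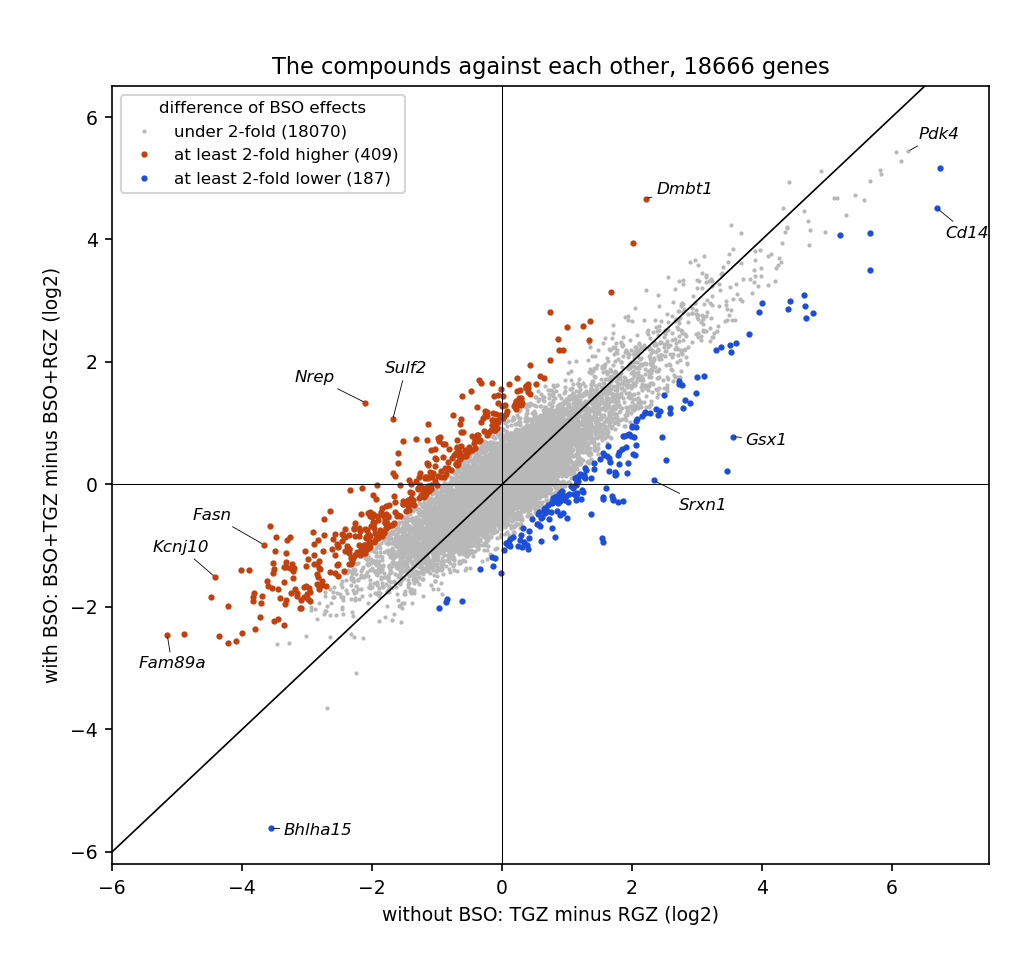
TGZ minus RGZ without BSO (horizontal axis, log2) against BSO+TGZ minus BSO+RGZ (vertical axis, log2) for the 18666 genes, with the line of equal difference. Genes at least 2-fold higher in the difference of BSO effects lie above the line, mostly at the left, and those lower lie below it, mostly at the right. Nrep and Sulf2 are the 2 labelled genes in the upper left part.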

How the data were processed

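RNA of 5 groups of mouse livers, 1 pool of 6 animals each, was labelled with 1 dye and measured on 5 arrays of 1 slide. Per the file headers the authors' scanner files were made with Agilent Feature Extraction 12.0.3.1, with probe positions on mm9, and the processed signal used here is a background-corrected intensity deposited by the authors. The authors' deposited log2 table held the same processed signals with 1 constant added per array, and served as an alternative. Control spots were left out. Outlier flags removed no spot and were used only in an alternative filter. Spots of a probe were averaged, and 56605 probes in 59305 spots remained, 51.9% to 55.2% of them well above background per array and none saturated. The intensities were divided by the 75th percentile of the array before log2 was taken. The difference of BSO effects and its 95% interval, from the processed signal's error of the 4 spots, were computed per gene in Python 3.11.15 with numpy 2.4.6, pandas 2.3.3 and scipy 1.17.1. Plots used matplotlib 3.10.9, and normexp background correction (offset 50) used R 4.3.3 with limma 3.58.1. The calculation was tested on simulated data.

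With 1 array per group no test was possible. A gene was called at 2-fold or more, and 1 array per group limits the precision. A bound puts the floor of the array in place of a dim signal.

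Genes were named by rule: the 15 largest differences per direction among genes whose other probes had the same sign and whose name is a RefSeq symbol, up to 4 per direction in each class of BSO effects, genes with like effects, up to 4 members farthest from 0 of each of 41 gene lists, 14 fixed genes, and the 2 largest bounds per direction. Acaca, Acly, Scd1, Pck1, Arntl, Clock, Atf4, Trib3, Egr1 and Myc were named beside it after their values were seen. Some genes that the rule names are not reported here. The contrast, the members and the gene lists were chosen with earlier results of these data known. Alternatives were median, spike-in and quantile scaling, the percentile over probes well above background, normexp, the deposited table, 4 filters on dim probes and the mean or median over probes.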

Additional observations from a re-analysis of the deposited data

Results flagged for a closer look

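In 2 genes BSO was accompanied by effects of at least 2-fold in opposite directions with the compounds. For Nrep, which encodes a small protein first described in neurons, the BSO effect was 1.55 with TGZ and -1.90 with RGZ on the log2 scale. For the pseudogene Cyp2d37-ps it was 1.28 with TGZ and -1.12 with RGZ. Each group is 1 pooled array, so these differences were not tested. In both genes all 4 thiazolidinedione arrays lay below the vehicle array.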

How the results depend on the processing

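No paired analysis was possible because each group is 1 array. Scaling moved the median difference of all genes, -0.03, to -0.18 with median scaling and 0.20 with spike-in scaling, and keeping dim probes moved it to -0.13. The count of 409 genes higher became 267 with median scaling, 810 with spike-in scaling, 117 with normexp and 2457 without the filter on dim probes. The count of 187 genes lower became 336, 83, 45 and 2231 under the same 4 settings. For BSO with TGZ, 204 genes higher became 451 with spike-in scaling, 48 with normexp and 1373 without the filter, and 40 lower became 13, 7 and 1260. For BSO with RGZ, 57 higher became 22 with normexp and 1128 without the filter, and 72 lower became 21 and 1352. The other counts stayed within 1.5 times. Among 2247 values of 189 named genes under 12 settings, 2218 moved by less than their interval and 28 by more, and of the genes past 2-fold 1 changed sign: Cyp2c55, at -0.0572 with normexp. The median of the hypoxia list turned to 0.0134 with spike-in scaling. Without the filter 36870 genes were counted, against 18666 with it. The causes were not tested. Counts were highest among dim genes, with 200 higher and 100 lower in the dimmest of 4 equal bins of genes and 34 and 27 in the brightest, where signal over background is largest.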

Other observations

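Other probes were well above background for some of the called genes. Of 80 genes higher in the difference with such a probe, 70 had the same sign and 40 were also past 2-fold, and of 22 lower ones 17 had the same sign and 10 were past 2-fold. Of the 596 called genes, 315 of those higher and 115 of those lower carry a RefSeq symbol, and the others carry names that are not RefSeq symbols. The largest negative difference of all belonged to a probe of this kind with no gene symbol. The interferon-inducible neighbours Apol9a and Apol9b were both higher, at 1.25 and 1.20, but their probes share 31 bases, so that the pair may be 1 signal. They were picked out after their values were seen.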
